A study of Gallus gallus with 9 samples.

Results

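What fibroblast growth factor 2 (FGF2) adds to retinal injury was read in the retinal pigment epithelium (RPE) of chicken embryos by setting rRPE against t-rRPE. rRPE, the reprogrammed RPE, was taken 6 h after retinectomy and placement of an FGF2-soaked bead in the eye cup. t-rRPE, the transiently reprogrammed RPE, was taken 6 h after retinectomy alone. Both groups were White Leghorn embryos operated at embryonic day 4, and both had lost the neural retina, so that the FGF2 bead is what the design adds. Intact RPE of embryonic day 4 was the third group of the series, and it enters here through the estimate of the spread and as a level to read the others against. The comparison used 6 of the 9 samples, 3 embryos in each group, and described the 16535 of 16635 genes whose summed normalized count over the 9 libraries was at least 20.

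RPE was cut from frozen sections with a laser, and in rRPE eyes only RPE close to the bead was captured. No bead without FGF2 is described for the t-rRPE eyes in the sources used here, so FGF2, the bead itself and the position of the captured cells cannot be told apart. In bulk RNA of this kind, fewer cells of a type and less RNA per cell cannot be told apart either. Values are normalized counts, reads on a gene divided by a size factor of the library, and fold changes are rRPE minus t-rRPE on log2(normalized count + 1). The test was limma with Benjamini-Hochberg adjustment over all genes, and the threshold for a differentially expressed gene (DEG) was 0.05 for the adjusted p together with a change of 1 or more on the log2 scale in either direction. The value after ± in a log2 fold change is its standard error, and where a library is at 0 the fold change depends on the offset of 1. The standard error and p rest on a spread shared by all groups, so scatter within intact RPE enters them.

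FGF2 binds receptor tyrosine kinases at the cell surface, and the bound receptors pass the signal through RAS and a chain of kinases to ERK, the last kinase of this mitogen-activated protein kinase (MAPK) cascade. ERK switches on immediate early transcription factors such as FOS and EGR1 and the ETS factors ETV4 and ETV5. It also induces its own inhibitors, the Sprouty proteins and the dual-specificity phosphatases (DUSPs), so their transcripts are a common readout of the pathway. In the early chick eye FGF favours neural retina, whereas OTX2 and MITF hold cells in the pigmented RPE fate. Retina can be regrown from embryonic chick RPE when FGF2 is supplied after the retina has been removed.

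Reads assigned to genes ranged from 32346059 to 33805965 in rRPE libraries and from 26167206 to 37645865 in t-rRPE libraries, and 1 read was worth 0.933 to 1.303 normalized counts. All 12 RPE markers were detected in each library, and they summed to 271861 to 427759 normalized counts in rRPE, 355404 to 484286 in t-rRPE and 356364 to 403519 in intact RPE. Markers of other tissues reached sums of the same order in some libraries. The 13 lens markers summed to 410478 in t-rRPE replicate 2, above the 355404 of its RPE markers, and to 22659 to 52006 in rRPE. The 8 erythroid markers summed to 377172 in rRPE replicate 3, against 427759 for its RPE markers. A single t-rRPE library stood apart in sex-linked genes. *HINTW*, a gene of the female-specific W chromosome, had 147356 normalized counts in t-rRPE replicate 1 and 0 in the other 5 compared libraries, and 102583 to 128872 in intact RPE. The 439 Z-linked genes with a mean of at least 50 lay at a median log2 deviation of -0.53 in t-rRPE replicate 1, against 0.00 to 0.08 in rRPE libraries and -0.04 and 0.05 in t-rRPE replicates 2 and 3. Their median log2 fold change was 0.27, against 0.02 for 8771 autosomal genes, and 0.07 without t-rRPE replicate 1. Chromosomes were assigned by symbol from the GRCg7b annotation, and the part of sex in the results below was not tested.

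**Figure D1:**
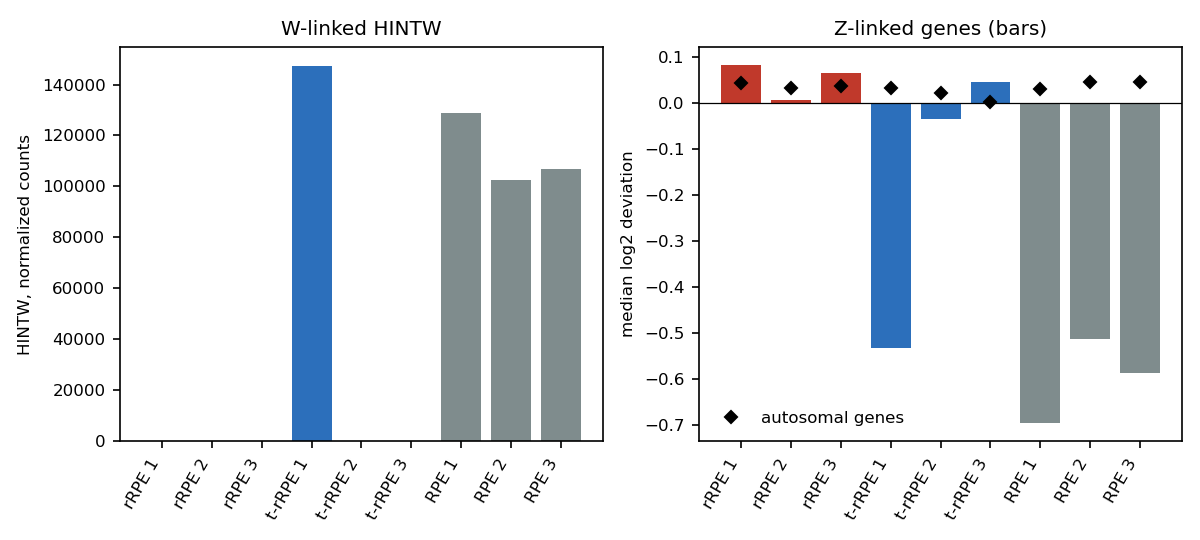
Left, normalized counts of the W-linked gene HINTW by library, and right, the median log2 deviation of 439 Z-linked genes (bars) and 8771 autosomal genes (diamonds) from the mean of the 5 rRPE and t-rRPE libraries without HINTW. Among the rRPE and t-rRPE libraries only t-rRPE replicate 1 holds HINTW, and its Z-linked median is -0.53.

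A small number of genes differed past the threshold by limma between retinectomy with FGF2 and retinectomy alone, and the number depended on the test. Of 16535 genes tested, 7 were called higher in rRPE (0.0423% of genes) and 2 were called lower (0.0121%), with adjusted p between 0.0133 and 0.0464. Raised genes were *RGS10*, *SLC9A3R1*, *FSCN1*, *TUBB6*, *TSC22D1*, *TGFB3* and a gene known only as *ENSGALG00000003747*. Those lowered were *OTX2* and *ID2*. At an unadjusted p of at most 0.05 there were 885 genes higher (5.35%) and 655 lower (3.96%). All 3 rRPE libraries lay above all 3 t-rRPE libraries for 1131 genes (6.84%) and below them for 940 (5.68%), and the median log2 fold change over all genes was 0.00. DESeq2 on whole reads recovered from the deposited values called 145 genes higher (0.877%) and 85 lower (0.514%), including all 9, while edgeR called 6 of the 9 and no other gene. Of the 230 DESeq2 calls, 183 had groups without overlap. Fold changes in this DESeq2 fit were not shrunken, whereas the study shrank its own, so the number of calls is not that of the study's method. Not called by edgeR were *TGFB3* (edgeR adjusted p = 0.0649), *TSC22D1* and *ENSGALG00000003747* (0.0727 for both).

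The calls rested on the full set of libraries. Without any 1 of the 6 compared libraries no gene passed, and the 9 genes then had an adjusted p of 0.0678 to 0.228. Without intact RPE replicate 2 or 3, which enter through the spread alone, none passed, and without intact RPE replicate 1 only *RGS10* did. With t-rRPE replicates 2 and 3 as the only t-rRPE libraries they had an adjusted p of 0.0893 to 0.133, while their fold changes kept their sign and stayed at an absolute log2 value of at least 0.96 with any library left out.

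**Figure D2:**
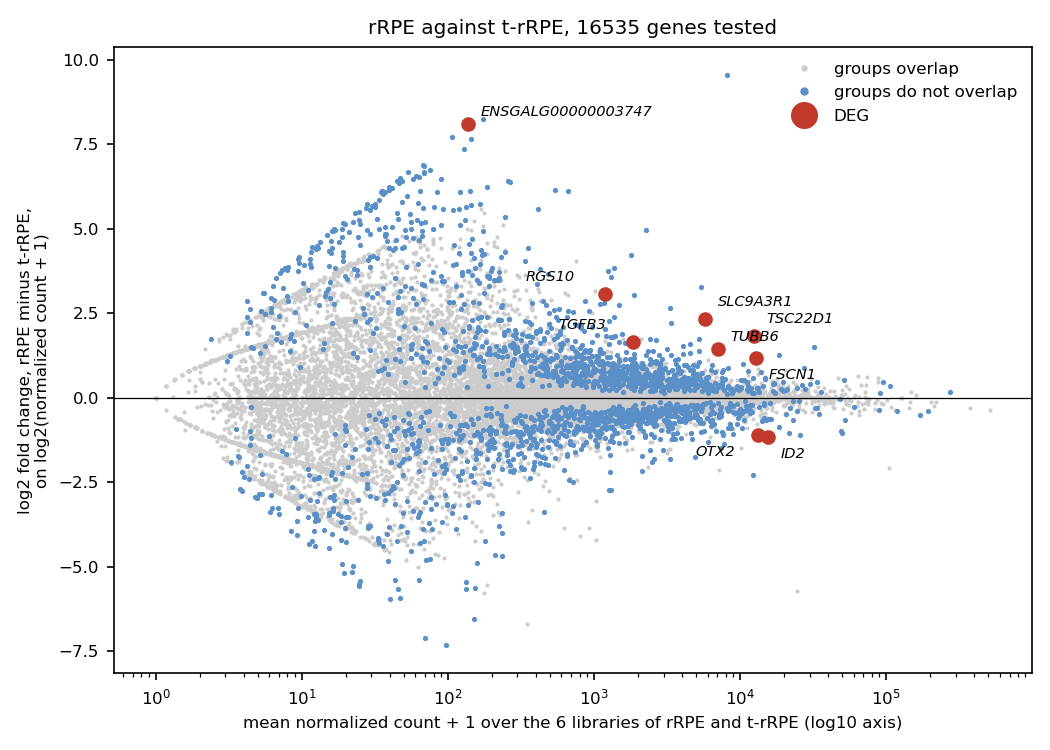
Log2 fold change of rRPE minus t-rRPE against the mean normalized count + 1 of the 6 libraries (log10 axis) for the 16535 genes tested. The 9 DEGs are red and named, the 1131 genes with rRPE above and the 940 with rRPE below t-rRPE without overlap are blue, and the fold change of a gene at 0 in a group depends on the offset of 1.

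Of the 7 genes that rose, 6 have a symbol and are given first. *RGS10*, which speeds the switching off of G protein alpha subunits, had 2164, 1905 and 2299.8 normalized counts in rRPE, against 227, 286 and 239.8 in t-rRPE. Its lowest rRPE library was several times above its highest t-rRPE library, with intact RPE in between at 524, 1176 and 959.8. The log2 fold change was 3.08 ± 0.34 (BH-adjusted p = 0.0133), and 3.01 without t-rRPE replicate 1. *SLC9A3R1*, also called NHERF1, is a scaffold that ties membrane proteins to ezrin under the plasma membrane. It had 6202, 11393 and 11492 normalized counts in rRPE, against 2104, 1412 and 2148 in t-rRPE, with no overlap and with intact RPE just above t-rRPE at 3193, 2380.1 and 2743. The log2 fold change was 2.33 ± 0.27 (BH-adjusted p = 0.0133).

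*FSCN1* encodes fascin, which bundles actin filaments in filopodia, and had 18667, 17967 and 16525 normalized counts in rRPE, against 8752, 8312 and 6724 in t-rRPE. All 3 rRPE libraries were also above intact RPE, which had 7452, 7009 and 7497 and lay close to t-rRPE. The log2 fold change was 1.17 ± 0.14 (BH-adjusted p = 0.0133). *TUBB6*, a beta-tubulin, had 8899, 13859 and 8566 normalized counts in rRPE, against 3801, 3887 and 3610.4 in t-rRPE, and intact RPE had 3159, 3577 and 3464. The rRPE libraries spread more than the tight t-rRPE libraries but did not reach them, and the log2 fold change was 1.44 ± 0.19 (BH-adjusted p = 0.0289).

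*TGFB3*, a ligand of the TGF-beta receptors, had 2142, 3493 and 2890.1 normalized counts in rRPE, against 946, 949 and 768 in t-rRPE. Intact RPE stood between both groups at 1908, 2045 and 1603, and the log2 fold change was 1.66 ± 0.24 (BH-adjusted p = 0.0464). *TSC22D1*, a leucine zipper protein first found as a TGF-beta-induced gene, had 17230.3, 18626 and 21771 normalized counts in rRPE, against 6420.5, 3378 and 7169 in t-rRPE. Intact RPE had 4192, 3807 and 2865, within or below the t-rRPE range, and the log2 fold change was 1.83 ± 0.26 (BH-adjusted p = 0.0436). *ENSGALG00000003747* had 236, 306 and 278 normalized counts in rRPE, against 0 in all 3 libraries in t-rRPE, and intact RPE held a trace of it at 17.3, 28.2 and 39.2. Against a floor of 3 reads per library (3.91 normalized counts in t-rRPE) its rRPE mean was at least 69.9-fold higher (adjusted p = 0.0289). Later bounds of this kind also set a group mean, and not the lowest library, against the floor.

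Both genes that fell encode nuclear regulators. The study named *OTX2* and *ID2* as lowered in rRPE of these libraries, so their direction is not independent evidence. *OTX2*, the homeodomain factor that specifies RPE and drives pigment genes, had 9273, 6893 and 9248 normalized counts in rRPE, against 19274, 16383 and 18521 in t-rRPE. The rRPE libraries were below intact RPE as well (14485, 13268 and 14020.0), whereas all 3 t-rRPE libraries were above it. The log2 fold change was -1.10 ± 0.14 (BH-adjusted p = 0.0289), and -1.05 without t-rRPE replicate 1. *ID2*, which blocks DNA binding of basic helix-loop-helix factors and is a familiar target of BMP signalling, had 10659, 9928 and 8342 normalized counts in rRPE, against 22852, 23165 and 19055 in t-rRPE. Intact RPE at 26061, 23901 and 23267 was slightly above t-rRPE, and the log2 fold change was -1.17 ± 0.14 (BH-adjusted p = 0.0133).

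**Figure D3:**
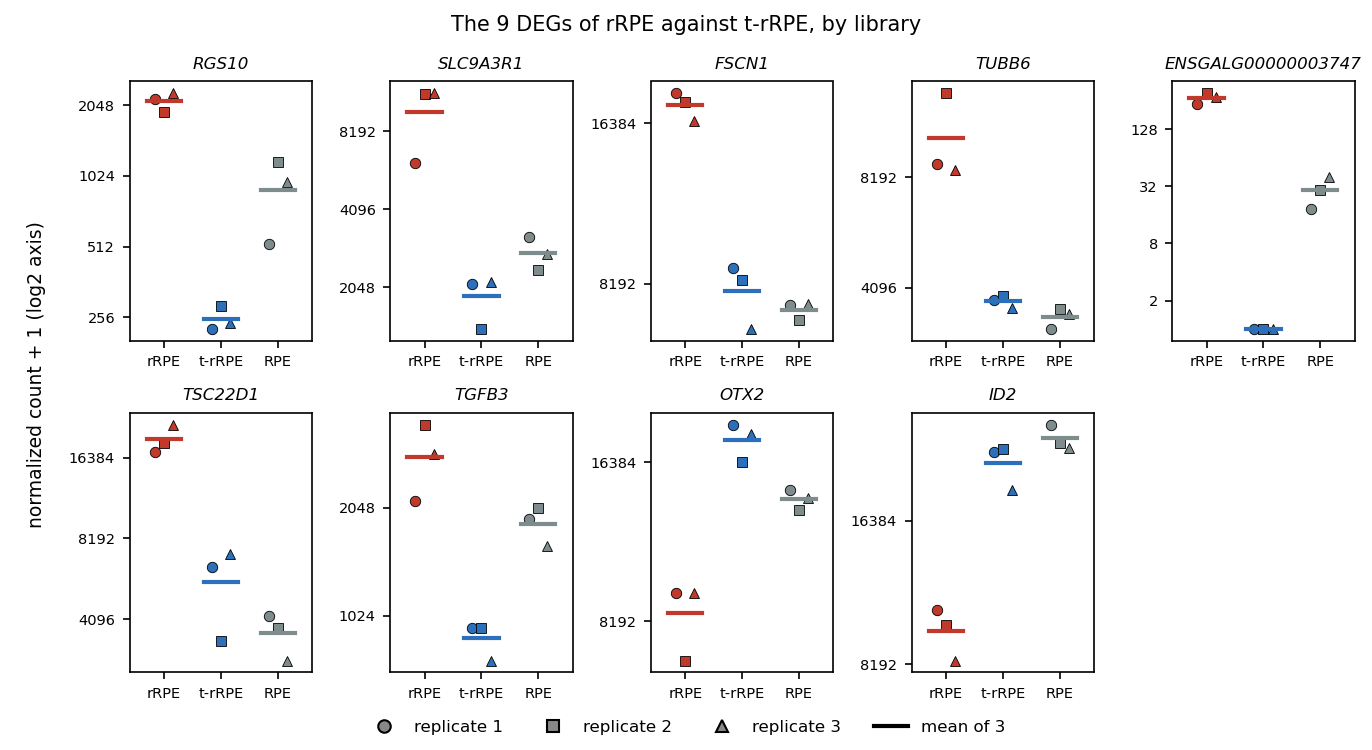
Normalized count + 1 (log2 axis, range set for each gene) of the 9 DEGs in rRPE, t-rRPE and intact RPE, with a symbol for each library and a line at the mean of 3. In none of the 9 genes do the rRPE and t-rRPE libraries overlap, and ENSGALG00000003747 is at 0 in all 3 t-rRPE libraries.

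Next in rank came genes that did not pass the threshold but stood apart in all libraries. Among genes with a symbol, a mean of at least 50 and no overlap, the 15 with the highest moderated t held 6 DEGs and 9 others with an adjusted p of 0.08 to 0.0987. The receptor *FGFR1* was the first of these, with 23739.9, 27434 and 26252 normalized counts in rRPE, against 11184, 8317 and 13339 in t-rRPE and a log2 fold change of 1.26 ± 0.20 (BH-adjusted p = 0.08). *IL1RAP*, the shared co-receptor of the interleukin 1 family, had 2269, 4040.1 and 3580.0 normalized counts in rRPE, against 722, 165 and 504 in t-rRPE. Its lowest t-rRPE value was in replicate 2, and its log2 fold change was 3.03 ± 0.50 (BH-adjusted p = 0.0987), or 2.41 without that library. *AFAP1L1*, an actin filament-associated adaptor, had 1391, 725 and 1291 normalized counts in rRPE, against 126, 328 and 151 in t-rRPE, a difference of 2.56 ± 0.44 (BH-adjusted p = 0.0987). Its intact RPE values of 848, 939 and 1322 were within the rRPE range.

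A further 5 genes of that set act in chromatin, transcription, energy sensing, membrane complexes and the extracellular matrix. *SMARCA5*, the ATPase of ISWI chromatin remodellers, had 14859.8, 14678 and 13796 normalized counts in rRPE, against 8669, 7087 and 9160.1 in t-rRPE, with intact RPE between both groups at 12328, 11607 and 13200.1. *IFRD1*, a transcriptional co-regulator, had a log2 fold change of 1.05 ± 0.18 (BH-adjusted p = 0.0987), and *PRKAG2*, a regulatory subunit of AMP-activated kinase, of 1.52 ± 0.27 (BH-adjusted p = 0.0987). *CACNG5*, an auxiliary subunit of glutamate receptors in mammals, had 1646, 1979 and 1294 normalized counts in rRPE, against 436, 569 and 361 in t-rRPE. *VTN*, the matrix glycoprotein vitronectin, had 101, 219 and 35.9 normalized counts in rRPE, against 0 in all 3 libraries in t-rRPE, at least 30.3-fold higher, and intact RPE had 168, 101 and 188. Groups without overlap were a condition for entering this set, and each of the 5 had an adjusted p of 0.0987 by limma.

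At the other end, 13 genes followed *ID2* and *OTX2* with an adjusted p of 0.0987 to 0.183. *ST6GALNAC5*, a sialyltransferase of gangliosides, had 1750.2, 1014 and 1965 normalized counts in rRPE, against 4681, 4390.0 and 4150.0 in t-rRPE (log2 fold change -1.54 ± 0.27, BH-adjusted p = 0.0987). *ZNF521*, a zinc finger regulator, had 3346, 3352 and 2479 normalized counts in rRPE, against 5505, 6731 and 6488 in t-rRPE (-1.04 ± 0.19, BH-adjusted p = 0.119). Separate groups were a condition for entering this set as well. *ABCG1*, a cholesterol exporter, had 1335, 502 and 1602 normalized counts in rRPE, against 4621, 3286 and 3653 in t-rRPE, and *AGPAT3*, which makes phosphatidic acid, had 3305, 1694 and 3738 normalized counts in rRPE, against 7528, 5474 and 6546 in t-rRPE. Their log2 fold changes were -1.90 and -1.23 (adjusted p = 0.167 for both by limma).

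*TESC*, the calcium-binding protein tescalcin, had 1903, 1701 and 2723 normalized counts in rRPE, against 3546, 6863 and 4667 in t-rRPE, and intact RPE had 1613, 1625 and 1849, below every t-rRPE library. *ROS1*, a receptor tyrosine kinase, had 0, 27.2 and 0 normalized counts in rRPE, against 235, 235 and 407 in t-rRPE. It was thus nearly off in rRPE, and the fitted change of such a low gene depends on the offset. Others were *GALNT11* (-0.91), *FAM206A* (-0.97), *PNRC1* (-0.61) and *CTNNAL1* (-1.31) in log2 fold change, with *RDH10* and *FGFR3* described below.

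Feedback inhibitors of MAPK signalling were higher with FGF2 on balance, although none of them was a DEG. Of 22 tested members, 21 had a positive fold change and 8 (36.4%) had all rRPE libraries above all t-rRPE libraries, against 6.84% of all genes. The median log2 fold change was 0.86, and 0.73 without t-rRPE replicate 1, against 0.00 over all genes. DESeq2 called 4 of the 22 higher and 0 lower, against 0.877% and 0.514% of all genes. *SPRY1*, *SPRY2*, *DUSP1*, *DUSP7* and *RASA2* were named in the study for a cluster chosen on the same libraries, so their direction is not independent evidence. The same holds for *SPRY4* and *DUSP5*, which the study named as raised in rRPE of these libraries. Of the 8 members without overlap, only *DUSP6* and *LRIG1* are not among these named genes. The share of 36.4% is therefore not independent evidence either, and the list was chosen with earlier results of these data known.

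The Sprouty proteins hold back RAS activation downstream of the receptor. *SPRY2* had 744, 1691 and 1540.0 normalized counts in rRPE, against 263, 208 and 484 in t-rRPE, with no overlap and a log2 fold change of 2.06 ± 0.43 (BH-adjusted p = 0.167). *SPRY1* had 1406, 2254 and 1966 normalized counts in rRPE, against 796, 36.4 and 628 in t-rRPE. Its groups did not overlap, but t-rRPE replicate 2 was far below replicates 1 and 3, and the log2 fold change of 2.79 ± 0.93 (BH-adjusted p = 0.386) was 1.38 without it. *SPRY4* had 51.8, 165 and 271 normalized counts in rRPE, against 33.6, 0 and 69.1 in t-rRPE, which overlapped. Intact RPE had 179, 345 and 358 for *SPRY1*, and was at 0 in all 3 libraries for *SPRY4*.

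The dual-specificity phosphatases take phosphate from ERK and its relatives. *DUSP7* had close rRPE values, with 3193, 3166 and 3244 normalized counts in rRPE, against 1299, 971 and 1857 in t-rRPE and a log2 fold change of 1.27 ± 0.24 (BH-adjusted p = 0.119). *DUSP1*, an immediate early phosphatase, had 6649, 7602 and 13713 normalized counts in rRPE, against 1194, 224 and 2921 in t-rRPE, and *DUSP6*, specific for ERK, had 3890.3, 7597 and 4449.6 normalized counts in rRPE, against 1863, 132 and 2104 in t-rRPE. Both stood apart in every library, and both had their lowest value in t-rRPE replicate 2. Their log2 fold changes of 3.26 ± 0.71 (BH-adjusted p = 0.167) and 2.66 ± 0.83 (BH-adjusted p = 0.346) were 2.24 and 1.36 without that library. *DUSP5*, a nuclear phosphatase of ERK, had 10365, 11670.1 and 20345 normalized counts in rRPE, against 7860.4, 5608 and 6900.1 in t-rRPE (1.00 ± 0.25, BH-adjusted p = 0.217).

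Among other inhibitors, *RASA2*, a GTPase-activating protein of RAS, had 1065, 1099.8 and 1427 normalized counts in rRPE, against 309, 397 and 816 in t-rRPE (log2 fold change 1.35 ± 0.41, BH-adjusted p = 0.335). *LRIG1*, which turns over receptor tyrosine kinases, had 681, 542 and 670.4 normalized counts in rRPE, against 48.8, 256 and 54.7 in t-rRPE (2.82 ± 1.77, BH-adjusted p = 0.677). These groups did not overlap either. By library, the median log2 deviation of the 22 genes was 0.36, 0.59 and 0.80 in rRPE, against -0.37, -0.83 and 0.01 in t-rRPE, so that t-rRPE replicate 2 lay lowest and replicate 3 was the nearest to rRPE.

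**Figure D4:**
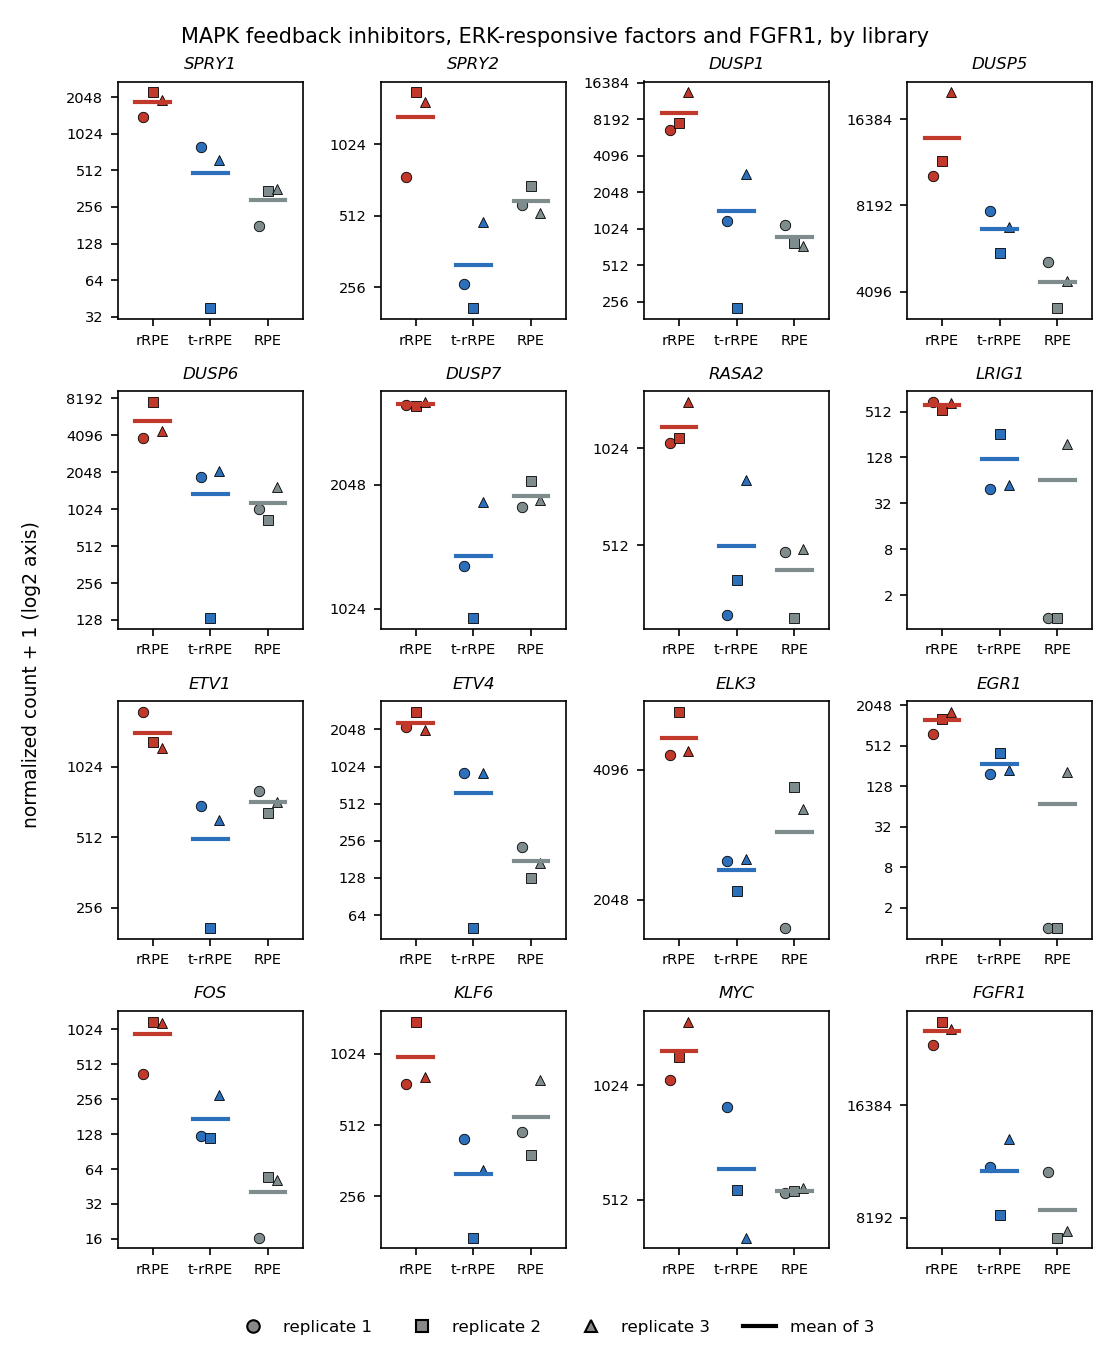
Normalized count + 1 (log2 axis, range set for each gene) of 8 MAPK feedback inhibitors, 7 ERK-responsive transcription factors and FGFR1 in rRPE, t-rRPE and intact RPE, with a symbol for each library and a line at the mean of 3. Only genes whose groups do not overlap are drawn, so rRPE lies above t-rRPE in each panel by selection, and overlapping members are left out. In SPRY1, DUSP1, DUSP6, ETV1 and ETV4, t-rRPE replicate 2 is far below the other 2.

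Transcription factors that respond to ERK followed the same direction. Of 23 tested, 22 had a positive fold change, and 11 (47.8%) lay higher in rRPE without overlap, against 6.84% of all genes. Their median log2 fold change was 1.10, and 1.04 without t-rRPE replicate 1. No member was a DEG, and DESeq2 called 4 higher and 0 lower, against 0.877% and 0.514% of all genes. *FOS*, *JUN*, *ATF3*, *MAFA* and *ELK3* were named in the study as raised in rRPE of these libraries, so their direction is not independent evidence.

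The ETS factors ETV1, ETV4 and ETV5 relay FGF signals in many tissues. *ETV4* had 2129, 2846 and 2013 normalized counts in rRPE, against 906, 49.5 and 909.8 in t-rRPE, and *ETV1* had 1755, 1298 and 1235 normalized counts in rRPE, against 697, 209 and 606 in t-rRPE. The groups were separate for both, with t-rRPE replicate 2 lowest, and the log2 fold changes were 2.73 ± 0.90 (BH-adjusted p = 0.383) and 1.66 ± 0.43 (BH-adjusted p = 0.237). Without that library they were 1.34 and 1.12. *ETV5* had 2401, 2605 and 4481 normalized counts in rRPE, against 2775, 2399 and 3218 in t-rRPE, which overlapped, with a log2 fold change of 0.13 ± 0.26 (BH-adjusted p = 0.922). *ELK3*, a ternary complex factor phosphorylated by ERK, had 4423, 5581 and 4520.5 normalized counts in rRPE, against 2514, 2146 and 2540.3 in t-rRPE (1.01 ± 0.26, BH-adjusted p = 0.241).

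Several immediate early genes were higher in all 3 rRPE libraries too. *FOS*, a subunit of AP-1, had 423, 1198 and 1158 normalized counts in rRPE, against 122, 117 and 276 in t-rRPE, and 15.4, 53.2 and 50.7 in intact RPE. *EGR1*, a zinc finger factor, had 759, 1266 and 1623 normalized counts in rRPE, against 193, 390.1 and 222 in t-rRPE, and 0, 0 and 207 in intact RPE. *ATF3*, a stress-induced AP-1 partner, had 1266, 803 and 996 normalized counts in rRPE, against 354, 535 and 703 in t-rRPE. None of the 3 overlapped, and their adjusted p values were 0.337, 0.758 and 0.862. These p values also take in the scatter of intact RPE, where *EGR1* ran from 0 to 207. *JUN* overlapped, with 2553, 3357 and 3623 normalized counts in rRPE, against 1565, 3303 and 2114 in t-rRPE (log2 fold change 0.50). *MYC*, the growth-promoting factor, had 1058, 1218 and 1506 normalized counts in rRPE, against 896, 541 and 407 in t-rRPE (1.10 ± 0.34, BH-adjusted p = 0.347), and *KLF6* had 762, 1395 and 815 normalized counts in rRPE, against 448, 171 and 331 in t-rRPE (1.70 ± 0.47, BH-adjusted p = 0.265). *MAFF*, with 0.84, and *IER5* and *FOSL2*, both at low counts, completed the 11.

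At the level of receptors, *FGFR1* and *FGFR3* lay on opposite sides. *FGFR1*, higher in rRPE as given above, had 10876, 7239.5 and 7559.8 normalized counts in intact RPE. *FGFR3* had 3634, 4350.3 and 5896 normalized counts in rRPE, against 10226, 9462 and 7643 in t-rRPE, and intact RPE was higher still at 12452, 17719 and 16780.2. Both sets were separate, with an adjusted p of 0.08 for *FGFR1* and 0.167 for *FGFR3* by limma. The study named *FGFR1* as raised and *FGFR3* as lowered in rRPE of these libraries, so their direction is not independent evidence. *FGFR2* overlapped, with 2496, 2789 and 5075 normalized counts in rRPE, against 1809.9, 680.3 and 2919.6 in t-rRPE. Over the 21 tested FGF ligands and receptors 2 were higher and 1 was lower without overlap (9.5% and 4.8%), near the 6.84% and 5.68% of all genes. The median log2 fold change was 0.56, and between 0.23 (t-rRPE replicate 1 left out) and 1.16 (t-rRPE replicate 3 left out).

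The kinases and adaptors between receptor and ERK did not share that direction. For 22 tested members of the RAS to ERK cascade the median log2 fold change was 0.05, and -0.06 without t-rRPE replicate 1, with 1 higher and 3 lower without overlap (4.5% and 13.6%, against 6.84% and 5.68% of all genes). This median was also negative, at -0.02, without rRPE replicate 2, so its sign did not hold. *SOS1*, an exchange factor of RAS, had 977, 1059 and 1303 normalized counts in rRPE, against 348, 958 and 817 in t-rRPE. It was higher in every rRPE library, with a log2 fold change of 0.77 ± 0.41 (BH-adjusted p = 0.592).

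Genes of the actin cytoskeleton and cell cortex held 2 of the 7 raised genes. Of 49 tested, 12 (24.5%) were higher and 1 (2%) lower without overlap, against 6.84% and 5.68% of all genes, while the median log2 fold change was only 0.13, and between 0.08 (t-rRPE replicate 1 left out) and 0.16 (rRPE replicate 2 left out). DESeq2 called 8 higher and 0 lower, against 0.877% and 0.514% of all genes. Beside *FSCN1* and *SLC9A3R1*, the higher members included linkers of membrane and actin. *EZR*, the NHERF1 partner ezrin, had 4999, 6370.3 and 5032 normalized counts in rRPE, against 1219.6, 682 and 1939 in t-rRPE, and intact RPE had 979, 354 and 968. *PTPRO*, a receptor tyrosine phosphatase of podocyte and growth cone membranes, had 972, 3873 and 2310.0 normalized counts in rRPE, against 49.9, 231 and 435 in t-rRPE, and intact RPE had 84.6, 21.1 and 49.2. Both lay well apart, with log2 fold changes of 2.21 ± 0.44 (BH-adjusted p = 0.139) and 3.57 ± 0.86 (BH-adjusted p = 0.209).

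Crosslinkers and nucleators were among them too. *ACTN1*, an alpha-actinin, had 4578, 4855 and 6170.3 normalized counts in rRPE, against 2162, 1966 and 2883 in t-rRPE (log2 fold change 1.16 ± 0.20, BH-adjusted p = 0.0987). *ARPC1B*, a subunit of the Arp2/3 complex, had 1890.3, 2379 and 1358 normalized counts in rRPE, against 209, 504 and 813 in t-rRPE (2.05 ± 0.49, BH-adjusted p = 0.209), and its groups were separate as well. *MYO1E*, a membrane-linked myosin, had 999, 1611 and 2216 normalized counts in rRPE, against 566, 434 and 884 in t-rRPE (1.34 ± 0.36, BH-adjusted p = 0.263), and *LIMA1*, which stabilizes stress fibres, had 2543, 2859.8 and 2137 normalized counts in rRPE, against 1585, 695 and 1615 in t-rRPE (1.04 ± 0.34, BH-adjusted p = 0.37). *CORO1C*, a coronin, was the member lower without overlap, with 9232, 9921 and 10109.7 normalized counts in rRPE, against 15021, 12282 and 10938 in t-rRPE (-0.38). Of the 12 higher members, *FSCN1*, *SLC9A3R1*, *EZR*, *PTPRO*, *ACTN1*, *MYO1E* and *LIMA1* were also named in the study for the cluster chosen on these libraries.

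TGF-beta and BMP signalling was mixed, with 1 DEG in each direction. Of 47 tested members, 11 (23.4%) were higher and 6 (12.8%) lower without overlap, against 6.84% and 5.68% of all genes. The median log2 fold change was 0.11, and between 0.06 (t-rRPE replicate 1 left out) and 0.35 (rRPE replicate 2 left out). On the TGF-beta side, the ligand *TGFB3* rose as given above. *TGFBR2*, its type II receptor, had 77.2, 103 and 159 normalized counts in rRPE, against 0, 0 and 22.2 in t-rRPE, and the signal transducer *SMAD3* had 1182, 1405 and 1006 normalized counts in rRPE, against 449, 589.8 and 532 in t-rRPE. Both groups were separate, and the log2 fold changes were 5.26 ± 1.62 (BH-adjusted p = 0.335) and 1.19 ± 0.35 (BH-adjusted p = 0.298). In this list *TGFB3*, *TGFBR2*, *SMAD3* and *SMAD6* were named in the study as raised in rRPE of these libraries. Their direction is not independent evidence.

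On the BMP side, inhibitors were split. *SMAD6*, an intracellular inhibitor, had 2157, 3451 and 2323 normalized counts in rRPE, against 1527, 775 and 985 in t-rRPE (1.30 ± 0.30, BH-adjusted p = 0.208), and the secreted antagonists *CHRD* and *FST* had 25.4, 252 and 48.2 in rRPE and 0, 5.6 and 0 in t-rRPE for *CHRD*, and 203, 494 and 764 in rRPE and 0, 0 and 136 in t-rRPE for *FST*. These 3 were higher in every rRPE library. *BAMBI*, a decoy receptor, had 1729, 1329.6 and 1092 normalized counts in rRPE, against 3049, 3813 and 2342 in t-rRPE (-1.15 ± 0.27, BH-adjusted p = 0.209), and the antagonist *NOG* had 197, 423 and 414 normalized counts in rRPE, against 716, 518 and 817 in t-rRPE (-1.04 ± 0.44, BH-adjusted p = 0.514). The ligand *BMP6* had 775, 1137 and 892 normalized counts in rRPE, against 2134, 1905 and 1168 in t-rRPE (-0.86 ± 0.30, BH-adjusted p = 0.395). These last 3 were lower in every rRPE library, as was *ID2*, while *ID1*, of the same family, was higher at 1568, 2429 and 1256 in rRPE and 956, 798 and 1191 in t-rRPE. *FST* lies on the Z chromosome and was at 0 in t-rRPE replicates 1 and 2.

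Regulators of RPE fate and pigment genes were lower with FGF2 on balance, with *OTX2* the only DEG. Of 31 tested, 23 had a negative fold change and 8 (25.8%) lay lower without overlap, against 5.68% of all genes. The median log2 fold change was -0.44, -0.41 without t-rRPE replicate 1, and between -0.61 (rRPE replicate 3 left out) and -0.22 (rRPE replicate 2 left out). By library, the median log2 deviation of the 31 genes was -0.35, -0.31 and 0.21 in rRPE, against 0.03, 0.21 and 0.23 in t-rRPE, so that rRPE replicate 3 lay within the t-rRPE range. *TRPM1*, a cation channel of pigment cells, had 12251, 11954 and 18436 normalized counts in rRPE, against 21713, 32904 and 32399 in t-rRPE (log2 fold change -1.03 ± 0.25, BH-adjusted p = 0.216). *GPR143*, the melanosome receptor of ocular albinism, had 4614, 2307 and 6702 normalized counts in rRPE, against 14206, 11605 and 7552 in t-rRPE (-1.38 ± 0.34, BH-adjusted p = 0.216). Neither overlapped.

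Some melanosome genes were also lower in all 3 rRPE libraries, while others such as *MLPH*, an adaptor of melanosome transport, and *GPNMB*, a melanosome glycoprotein, overlapped, with positive log2 fold changes of 3.09 ± 1.39 (BH-adjusted p = 0.535) and 0.68 ± 0.44 (BH-adjusted p = 0.688). *RAB27A*, which tethers melanosomes, had 4124, 3567 and 4447 normalized counts in rRPE, against 4921, 7954 and 6582 in t-rRPE (-0.66 ± 0.18, BH-adjusted p = 0.275). *OCA2*, a melanosomal chloride channel, had 3199, 2976 and 3815 normalized counts in rRPE, against 6434, 4819 and 3991 in t-rRPE (-0.59 ± 0.20, BH-adjusted p = 0.387), and *SLC24A5*, a melanosomal exchanger, had 3093, 3354 and 3786 normalized counts in rRPE, against 5492, 4453 and 4115 in t-rRPE (-0.45 ± 0.18, BH-adjusted p = 0.503). Their groups were separate. The melanin-synthesis enzyme *TYR* had 47336, 54192 and 71888 normalized counts in rRPE, against 70147, 62862 and 70660.0 in t-rRPE, and *DCT*, which acts after it, had 43855, 51362 and 74004 normalized counts in rRPE, against 84903, 61128 and 73822 in t-rRPE. Both overlapped, with rRPE replicate 3 above the other rRPE libraries. *MITF*, the master regulator of pigment cells, had 1441, 1908 and 1210.5 normalized counts in rRPE, against 1548, 2886 and 2095 in t-rRPE. It overlapped too, although intact RPE was above both groups at 3911, 5933 and 5855. The study named *MITF* as lowered in t-rRPE and rRPE of these libraries, so its standing below intact RPE is not independent evidence.

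Genes of the eye field and of retinal progenitors went both ways. Of 29 tested, 2 were higher and 6 lower without overlap (6.9% and 20.7%), against 6.84% and 5.68% of all genes. The median log2 fold change was 0.28, and between 0.17 (rRPE replicate 2 left out) and 0.34 (t-rRPE replicate 2 left out). *SIX6*, a homeodomain factor of the neural retina, had 2010.1, 2898 and 1269 normalized counts in rRPE, against 366, 197 and 898 in t-rRPE, apart in every library, with a log2 fold change of 2.28 ± 0.58 (BH-adjusted p = 0.222). The study named *SIX6* for a cluster chosen on these libraries, so its direction is not independent evidence. Lower members were regulators of progenitors. *NR2E1*, the orphan receptor TLX, had 6042, 4978 and 7942 normalized counts in rRPE, against 10216, 11311 and 10685 in t-rRPE (-0.79 ± 0.20, BH-adjusted p = 0.217), *SOX9* had 2871, 2001 and 2927 normalized counts in rRPE, against 4001, 6127 and 3188 in t-rRPE (-0.74 ± 0.25, BH-adjusted p = 0.39) and *MEIS2* had 5623, 5087 and 3526 normalized counts in rRPE, against 6424, 8763 and 6331 in t-rRPE (-0.61 ± 0.20, BH-adjusted p = 0.383). The Notch target *HES1* had 432, 681 and 545 normalized counts in rRPE, against 1036, 1021 and 843 in t-rRPE (-0.82 ± 0.31, BH-adjusted p = 0.467). For these 4 all rRPE libraries were below all t-rRPE libraries.

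Retinoid genes held wide differences in single members and no common direction. *ALDH1A3*, which makes retinoic acid and marks the ventral retina, had 10522, 35801 and 2167 normalized counts in rRPE, against 6.51, 267 and 0 in t-rRPE, and intact RPE had 893, 0 and 30. The lowest rRPE library exceeded the highest t-rRPE library, but the spread within each group was wide, and the log2 fold change of 9.53 ± 2.38 (BH-adjusted p = 0.217) was not a DEG. *CYP26B1*, which breaks retinoic acid down, had 72.1, 55.4 and 80.1 normalized counts in rRPE, against 0 in all 3 libraries in t-rRPE. This was a difference of at least 17.7-fold (adjusted p = 0.119 by limma). *CYP1B1*, a cytochrome P450, had 31551, 47947 and 56401 normalized counts in rRPE, against 21735, 6366 and 27839 in t-rRPE (1.49 ± 0.43, BH-adjusted p = 0.292). *RDH10*, which makes retinaldehyde from retinol, had 44686, 24452 and 31679 normalized counts in rRPE, against 71772, 62425 and 58593 in t-rRPE, with intact RPE near t-rRPE at 64331, 56378 and 54289 and a log2 fold change of -0.97 ± 0.19 (BH-adjusted p = 0.119). The median of 25 tested retinoid genes was -0.07, and between -0.31 (t-rRPE replicate 2 left out) and 0.68 (t-rRPE replicate 3 left out). 3 were higher and 1 lower without overlap (12% and 4%), against 6.84% and 5.68% of all genes.

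**Figure D5:**
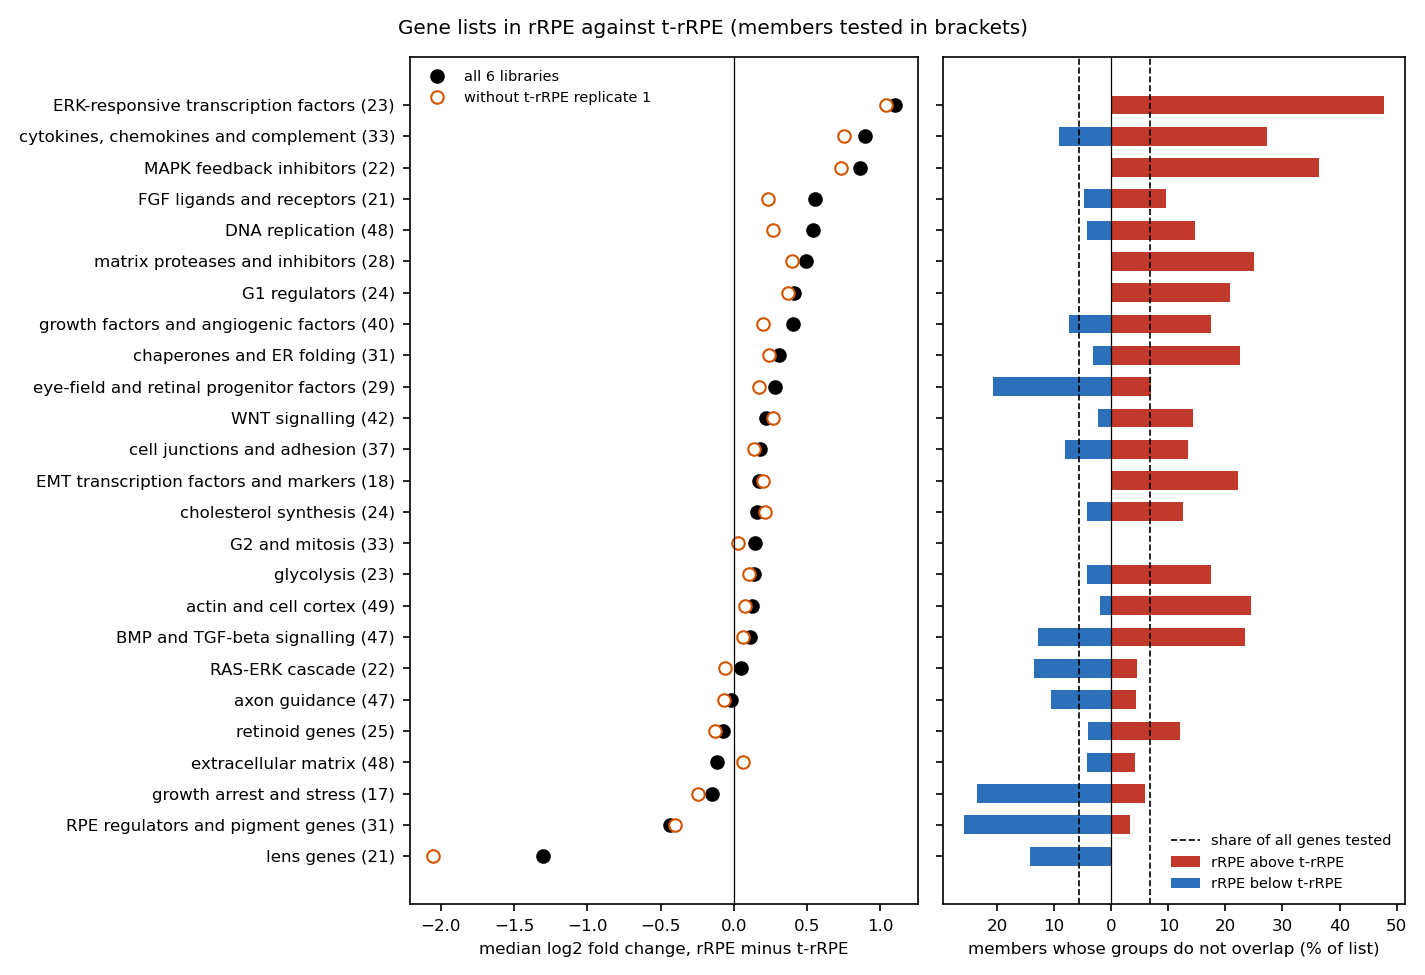
Gene lists in rRPE against t-rRPE, with the number of tested members in brackets. Left, the median log2 fold change with all 6 libraries (filled) and without t-rRPE replicate 1 (open), and right, the share of members with rRPE above (red) or below (blue) t-rRPE without overlap, with dashed lines at 6.84% and 5.68% of all genes tested. ERK-responsive factors reach 47.8% above and RPE and pigment genes 25.8% below.

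Lens genes were lower with FGF2 in median, and their values varied widely within t-rRPE. The 21 tested had a median log2 fold change of -1.30, and -2.06 without t-rRPE replicate 1, with 3 lower (14.3%, against 5.68% of all genes) and 0 higher without overlap. Of the 21, 13 had a negative and 8 a positive fold change. *CRYBA1*, *CRYBA4*, *CRYBB1* and *CRYBB2* were among the 8, at 0.27 to 0.34, while *CRYBA2* and *CRYBB3* had -1.54 and -0.34. *CRYAA*, the lens chaperone alpha A-crystallin, had 2150.2, 3103 and 1256 normalized counts in rRPE, against 2647, 21424 and 12730.1 in t-rRPE, and *ASL1*, the avian delta-crystallin, had 41516, 38876 and 17338 normalized counts in rRPE, against 39430.0, 332972 and 160226 in t-rRPE. t-rRPE replicate 1 was within the rRPE range for both, and only replicates 2 and 3 were far above it. *CRYAB* had 1838, 1366 and 919.9 normalized counts in rRPE, against 1695, 7612 and 5512 in t-rRPE (log2 fold change -1.65 ± 0.51, BH-adjusted p = 0.336), and -2.29 without t-rRPE replicate 1. Intact RPE had 9.61, 64.9 and 8.45 for *CRYAA*, below every rRPE and t-rRPE library. Without t-rRPE replicate 2 the median of the 21 genes was -0.09. *CRYAA*, *CRYAB* and *ASL1* were named in the study as raised in t-rRPE of these libraries, so their direction is not independent evidence.

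Cell cycle genes leaned toward rRPE in median, without a DEG among them. For DNA replication genes the median log2 deviation by library was 0.25, 0.536 and -0.019 in rRPE, against -0.591, 0.385 and -0.249 in t-rRPE. The groups thus interleaved, with t-rRPE replicate 2 above rRPE replicates 1 and 3. DNA replication genes had a median log2 fold change of 0.54 over 48 tested, 40 of them positive, and 0.27 without t-rRPE replicate 1, in which these genes were lowest. 7 (14.6%) were higher and 2 (4.2%) lower without overlap, against 6.84% and 5.68% of all genes. *MCM2*, of the replicative helicase, had 3036, 3701 and 1913 normalized counts in rRPE, against 1198, 1644 and 1542 in t-rRPE, and intact RPE had 3765, 5360.0 and 5072. *ORC6*, of the origin recognition complex, had 1695, 2120.3 and 1925 normalized counts in rRPE, against 1420.4, 776 and 868 in t-rRPE, and intact RPE had 2643, 2966 and 2306. In both genes rRPE thus stood between t-rRPE and intact RPE, and the log2 fold changes were 0.94 ± 0.27 (BH-adjusted p = 0.275) and 0.95 ± 0.26 (BH-adjusted p = 0.264). *PCNA*, the sliding clamp of the polymerases, overlapped, with 4491, 5865 and 2825 normalized counts in rRPE, against 2267, 3276 and 2961 in t-rRPE. Of the genes given here, *MCM2*, *ORC6* and *PCNA* were named in the study as lowered in t-rRPE of these libraries. Their direction is not independent evidence.

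Among 24 G1 regulators 5 (20.8%) were higher and 0 lower without overlap, against 6.84% and 5.68% of all genes, with a median of 0.41. *E2F1*, which turns on replication genes, had 525, 381 and 279 normalized counts in rRPE, against 154, 87.7 and 159 in t-rRPE, with both groups below the 1286, 660.1 and 765 of intact RPE. *SKP2*, which marks the inhibitor p27 for destruction, had 4305, 3884 and 3685 normalized counts in rRPE, against 2842, 2745 and 2488 in t-rRPE. The inhibitor *CDKN1A*, p21, also stood higher at 135, 330.1 and 396 in rRPE and 14.1, 0 and 129 in t-rRPE. Log2 fold changes were 1.56 ± 0.48 (BH-adjusted p = 0.335), 0.56 ± 0.16 (BH-adjusted p = 0.295) and 4.38 ± 1.55 (BH-adjusted p = 0.413). *SKP2* lies on the Z chromosome, and its log2 fold change was 0.60 without t-rRPE replicate 1. *E2F1* was named in the study as lowered in t-rRPE of these libraries, so its direction is not independent evidence. The 33 mitotic genes had none without overlap in either direction, and their median of 0.15 did not keep its sign, and was between -0.01 (rRPE replicate 2 left out) and 0.53 (t-rRPE replicate 2 left out). By library their median log2 deviation was highest in t-rRPE replicate 2, at 0.702.

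Genes of growth arrest were lower in part. Of 17 tested, 4 were lower and 1 was higher without overlap (23.5% and 5.9%, against 5.68% and 6.84% of all genes). The median was -0.15, and between -0.34 (rRPE replicate 1 left out) and -0.10 (rRPE replicate 3 left out). *CDC14A*, a phosphatase that opposes cyclin-dependent kinases, had 3395, 2464 and 3287 normalized counts in rRPE, against 4919.8, 4593 and 5075 in t-rRPE (-0.69 ± 0.18, BH-adjusted p = 0.261). *BTG1*, an antiproliferative factor, had 33803, 23988 and 29038 normalized counts in rRPE, against 46954, 34043 and 40916 in t-rRPE (-0.49 ± 0.17, BH-adjusted p = 0.413), and *SESN3*, an inhibitor of growth through the TOR kinase, had 538, 164 and 467 normalized counts in rRPE, against 1156, 777 and 1332 in t-rRPE (-1.62 ± 0.49, BH-adjusted p = 0.33). *GADD45B*, a stress sensor, was the higher one, with 921, 1569 and 1026 normalized counts in rRPE, against 476, 449.8 and 490.1 in t-rRPE (1.27 ± 0.36, BH-adjusted p = 0.287). *CDC14A* and *BTG1* were named in the study as raised in t-rRPE, and *GADD45B* as raised in rRPE, of these libraries. Their direction is not independent evidence.

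A list of cytokines, chemokines, their receptors and regulators, and complement was higher in median. Its interleukins mostly did not share that direction. *IL1B*, *IL16* and *IL18* had log2 fold changes of -2.34, -2.06 and -1.88. *IL6*, *IL8L1*, *IL15* and *IL8* had -0.33, -0.23, 0 and 1.07. Of 33 tested, 9 (27.3%) were higher and 3 (9.1%) lower without overlap, against 6.84% and 5.68% of all genes, with a median log2 fold change of 0.90, and 0.75 without t-rRPE replicate 1. *CXCL14*, a chemokine, had 3654, 1838 and 4502 normalized counts in rRPE, against 129, 68.1 and 511 in t-rRPE, and was at 0 in all 3 libraries of intact RPE. *CXCR4*, the receptor of CXCL12, had 4402, 4137 and 3353 normalized counts in rRPE, against 754, 2356 and 958 in t-rRPE. Both lay apart, with log2 fold changes of 4.23 ± 0.94 (BH-adjusted p = 0.178) and 1.72 ± 0.43 (BH-adjusted p = 0.217). *CD200*, a surface ligand that restrains macrophages, had 796, 1764 and 515 normalized counts in rRPE, against 0, 141 and 13 in t-rRPE (6.16 ± 1.46, BH-adjusted p = 0.209). *IL18* and *C1R* were lower, at 101, 44.9 and 34.9 in rRPE and 248, 136 and 244 in t-rRPE for the first and 55.8, 135 and 181 in rRPE and 548, 215 and 395 in t-rRPE for the second. DESeq2 called 4 members higher and 0 lower, against 0.877% and 0.514% of all genes. *CXCL14*, *IL6ST* and *SOCS3* were named in the study as raised, and *IL18* and *C1R* as lowered, in rRPE of these libraries. Their direction is not independent evidence. Of 9 macrophage markers 8 had a positive fold change too, although their summed counts overlapped (1144 to 1923 in rRPE and 1285 to 2415 in t-rRPE). Most of each t-rRPE sum came from *CSF1R*, the only marker of the 9 with a negative fold change. The part of macrophages in these values was not tested.

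Adhesion and matrix genes gave differences in single members, and a list of proteases, their inhibitors and lysyl oxidases was higher in median. *ITGA4*, the alpha 4 integrin, had 3764, 4873 and 4019 normalized counts in rRPE, against 152, 20.5 and 753 in t-rRPE, apart in every library, with a log2 fold change of 4.95 ± 1.28 (BH-adjusted p = 0.237). *GJA1*, the gap junction protein connexin 43, had 36781, 36580.1 and 22211 normalized counts in rRPE, against 59874, 98942 and 44319 in t-rRPE (-1.04 ± 0.28, BH-adjusted p = 0.241), and its groups were separate. *TIMP2*, an inhibitor of metalloproteinases, had 15946, 20466 and 17346 normalized counts in rRPE, against 12938, 10103 and 12787 in t-rRPE (0.59 ± 0.16, BH-adjusted p = 0.264), and the metalloproteinase *MMP9* had 112, 515 and 193 normalized counts in rRPE, against 0, 15.9 and 36.5 in t-rRPE (4.71 ± 1.51, BH-adjusted p = 0.365). The median was 0.18 for 37 junction genes, and between 0.14 (rRPE replicate 3 left out) and 0.34 (t-rRPE replicate 3 left out). It was -0.12 for 48 matrix genes, with 0.06 without t-rRPE replicate 1. For 28 proteases, inhibitors and lysyl oxidases it was 0.49, and between 0.22 (t-rRPE replicate 2 left out) and 0.64 (rRPE replicate 1 left out). 7 of these 28 (25%) were higher without overlap and 0 lower, against 6.84% and 5.68% of all genes. Among these 7, *LOX*, *LOXL1* and *LOXL2* are lysyl oxidases and not proteases or inhibitors. Of the 7, *MMP9*, *ADAMTS9*, *LOXL1* and *LOXL2* were also named in the study among matrix regulators enriched in these rRPE libraries. Their direction is not independent evidence.

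Factors of the epithelial to mesenchymal transition and WNT genes were read as well. Of 18 transition genes 4 (22.2%) were higher and 0 lower without overlap, against 6.84% and 5.68% of all genes. Their median log2 fold change was 0.17, and between 0.09 (t-rRPE replicate 2 left out) and 0.25 (rRPE replicate 2 left out). *SNAI1*, a repressor of E-cadherin, had 795, 1630.5 and 1098 normalized counts in rRPE, against 493, 519.8 and 255 in t-rRPE, and intact RPE had 1537, 2866 and 3197. *ZEB1* had 2082, 2132 and 2399 normalized counts in rRPE, against 2057, 1513 and 1073 in t-rRPE. The groups were apart, with log2 fold changes of 1.48 ± 0.40 (BH-adjusted p = 0.264) and 0.56 ± 0.25 (BH-adjusted p = 0.534). *SNAI1* was named in the study as raised in rRPE of these libraries, so its direction is not independent evidence. In the WNT list 6 of 42 (14.3%) were higher and 1 (2.4%) was lower without overlap, against 6.84% and 5.68% of all genes. The median was 0.22, and between 0.19 (rRPE replicate 2 left out) and 0.37 (t-rRPE replicate 3 left out). *LGR5*, the R-spondin receptor, had 1775, 2421 and 662 normalized counts in rRPE, against 576, 614 and 527 in t-rRPE (1.31 ± 0.48, BH-adjusted p = 0.447), and the receptor *FZD4* had 989.8, 1169 and 731 normalized counts in rRPE, against 679, 383 and 581 in t-rRPE (0.83 ± 0.33, BH-adjusted p = 0.506).

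Among genes with a symbol, 45 were at 0 in all 3 t-rRPE libraries and above 3 reads in all 3 rRPE libraries, and 9 showed the opposite. None of these 54 was a DEG by limma, with adjusted p of 0.0987 to 0.551 for the 45 and 0.216 to 0.35 for the 9. DESeq2 called 20 of them, where it called 0.877% of all genes higher and 0.514% lower. The 54 were chosen for being at 0 in 1 group, so neither these calls nor the folds below are independent of that choice. The 45 had rRPE means of 8.87 to 349 normalized counts. Of the 45, 6 had a read in all 3 intact RPE libraries. A further 7 were at 0 in all intact RPE libraries, so reads in rRPE alone carried these 7 past the summed-count filter. *F2RL1*, the protease-activated receptor PAR2, had 136, 367 and 544 normalized counts in rRPE and was at least 89.2-fold higher. *KRT23*, a keratin, had 61.9, 567 and 228 (at least 73.1-fold), and *GRM4*, a metabotropic glutamate receptor, had 271, 194 and 171 (at least 54.3-fold). Both were at 0 in t-rRPE and in intact RPE replicates 1 and 2.

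*TACR1*, the substance P receptor, had 289, 67.9 and 51.3 in rRPE, and *WNT6*, a WNT ligand, had 13.2, 47 and 81.1. *RUNX1*, a transcription factor of blood and sensory lineages, had 24.4, 101 and 49.3. All 3 were at 0 in every t-rRPE and intact RPE library, and passed the filter through rRPE alone. Their rRPE means were at least 34.8-, 12.1- and 14.9-fold above the floor in that order, and the lowest libraries were nearer to it. The study named *WNT6* among secreted factors enriched in these rRPE libraries, so its direction is not independent evidence. *PLA2G4F*, a phospholipase, had 143, 89.8 and 80.1 (at least 26.7-fold), and *TNFAIP6*, a hyaluronan-binding protein of inflammation, had 291, 59.5 and 54.4 (at least 34.5-fold). Among the 9 with the opposite pattern was *PLPP7*, of the phospholipid phosphatase family, at 0 in rRPE against 170.4, 129 and 116 in t-rRPE and at least 44.2-fold lower. *F2RL1* lies on the Z chromosome, where t-rRPE replicate 1 differs, and it was at 0 in all 3 t-rRPE libraries. The part of sex in its difference was not tested.

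Markers of other cells in the eye were read because laser capture can include neighbours. The complement genes *C1QA* and *C1QB* of macrophages were detected in rRPE but not in t-rRPE. They had 101, 133 and 39 for *C1QA* and 66, 104 and 25.7 for *C1QB* in rRPE, against 0 in all 3 t-rRPE libraries. Among 9 macrophage markers measured, 8 had a positive log2 fold change, with a median of 2.57, and 1.39 without t-rRPE replicate 1. Of the 9, 2 (22.2%) were higher and 0 lower without overlap, against 6.84% and 5.68% of all genes. They summed to 1144 to 1923 normalized counts in rRPE and 1285 to 2415 in t-rRPE, with 0 of them at 0 in all 3 rRPE libraries and 2 in all 3 t-rRPE libraries. *CSF1R*, the receptor of macrophage colony-stimulating factor, had 183, 473 and 1201 normalized counts in rRPE, against 1047, 1410.1 and 1911 in t-rRPE, which overlapped. It was the only macrophage marker with a negative fold change, and it made up most of each t-rRPE sum. The 8 endothelial markers summed to 4553 to 4780 in rRPE and 2348 to 4890 in t-rRPE, with none at 0 throughout either group. Of the 8, 3 (37.5%) were higher and 0 lower without overlap, against the same shares of all genes. Their median log2 fold change was 1.47, and 0.88 without t-rRPE replicate 1. The 12 mesenchyme markers summed to 12051 to 14520 in rRPE and 9657 to 12110 in t-rRPE, with 1 at 0 throughout rRPE and 0 throughout t-rRPE. Of the 12, 2 (16.7%) were higher and 0 lower without overlap, against 6.84% and 5.68% of all genes. Their median was 1.04, and 1.32 without t-rRPE replicate 1.

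*POSTN*, a matrix protein of mesenchyme, had 122, 71 and 19.5 normalized counts in rRPE, against 0, 0 and 3.91 in t-rRPE and 165, 124 and 69.2 in intact RPE. *VTN* had reads in rRPE and intact RPE and none in t-rRPE. The 8 erythroid markers summed to 149637 to 377172 in rRPE and 102528 to 275942 in t-rRPE, and the 13 lens markers to 22659 to 52006 in rRPE and 49375 to 410478 in t-rRPE. The 8 retinal neuron markers measured summed to 14672 to 15717 in rRPE and 14010 to 20974 in t-rRPE, with 0 at 0 throughout rRPE and 3 throughout t-rRPE. Their median log2 fold change was 2.10, and 0.35 without rRPE replicate 1. Of the 8, 5 had a positive and 3 a negative fold change, and 0 were higher or lower without overlap. In none of these lists were the sums of both groups apart, and the part of these cells in the results was not tested.

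The genes the study named for its 2 clusters regulated only with FGF2 were chosen on these same libraries, so their counts describe and do not test. All 16 of the first cluster lay higher in rRPE without overlap, with a median log2 fold change of 1.50 and 3 DEGs. Of 10 in the second, 3 lay lower without overlap, with a median of -1.15 and 1 DEG, *OTX2*. In that second cluster, *IL16*, a cytokine, had 568, 349 and 2672 normalized counts in rRPE, against 4139.6, 2205 and 4184 in t-rRPE, and *COL8A1*, a collagen of basement membranes, had 182, 282 and 158 normalized counts in rRPE, against 1559, 248 and 961 in t-rRPE. *FMN1*, a formin that builds actin filaments, had 1494, 1064 and 2197 normalized counts in rRPE, against 5047, 1698 and 4120.0 in t-rRPE. In all 3 genes the groups overlapped through t-rRPE replicate 2, the lowest t-rRPE library, and rRPE lay below t-rRPE replicates 1 and 3.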

How the data were processed

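RPE was laser-captured from chicken embryos and sequenced as bulk RNA in 9 libraries. Per the labels and the study's methods, the authors trimmed reads with Trim Galore 0.6.1 and cutadapt 1.18, aligned them to the GRCg6a build with STAR 2.7.3, counted with StringTie 2.0.4, and normalized with DESeq2 1.22.2. The deposited values are a signal, counts per gene divided by size factors. Whole reads were recovered from them, and a share of 1 of values was whole within 0.001.

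limma 3.58.1 (R 4.3.3) was fitted on log2(normalized count + 1) of the 9 libraries with a trend, over genes with a summed value of at least 20. edgeR 4.0.16, which called 6 genes, and DESeq2 1.42.0 were run on the recovered reads as alternatives. Scripts used Python 3.11.15, numpy 2.4.6, pandas 2.3.3 and matplotlib 3.10.9, and the fit was tested on simulated data. Genes were named if they were DEGs, among the 15 highest or 15 lowest moderated t values with a symbol, a mean of at least 50 and non-overlapping groups, at 0 in 1 group and above 3 reads in the other, members of a list under discussion, or named in the study for its FGF2 clusters. Members and lists were chosen with earlier results of these data known. Alternatives were the replicate block, no trend, the 6 libraries alone, other offsets, filters and scaling, and each library left out. Groups followed the labels, with 3 embryos each. A few genes are not reported here.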

Additional observations from a re-analysis of the deposited data

How the results depend on the processing

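The 9 calls were 9 again with an offset of 0.5, no filter, a mean of at least 10, quantile normalization or upper-quartile rescaling, and 10 with an offset of 5. limma without the trend called 31 genes (25 higher, 6 lower in rRPE) but kept only 2 of the 9, *RGS10* and *ENSGALG00000003747*, and lost 7. DESeq2 called 230 (145 higher, 85 lower), all 9 included, and edgeR 6 (4 higher). limma on only the 6 libraries called 0, with 0 higher and 0 lower, although 1276 genes had an unadjusted p of at most 0.05. Leaving out 1 library called 0 to 1 genes in all, 0 to 1 higher and 0 lower, with 1065 to 1761 at an unadjusted p of at most 0.05. Genes without overlap then numbered 1710 to 2038 with rRPE above and 1369 to 1994 with rRPE below, since fewer libraries overlap less often by construction. The log2 fold change of *HINTW* ran from -8.58 to 0 across these, and that of *ETV5* from -0.15 to 0.30. With the replicate number as a term, the replicate block called 6 genes (4 higher and 2 lower), all among the 9 and the same 6 as edgeR. Same-numbered libraries had correlations of deviations of 0.016, 0.054 and 0.06, against -0.064 to 0.008 for libraries of different numbers. All of these were small, the study's methods name no pairing of replicates, and no pairing is read from them. No other of 130 named genes changed direction in any of 20 alternatives, and 7 of 35 list medians changed sign in at least 1, among them retinoid genes, the RAS to ERK cascade, matrix, axon guidance and mitosis. Each group held 3 embryos, and many low genes were at 0 in a library. Of the genes at 0 throughout a group, *ENSGALG00000003747* was a DEG by limma. None of the 54 with a symbol was, and DESeq2 called 20 of those. What group size and depth did to low genes was not tested.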

Other observations

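Chaperone and metabolic genes gave small shifts. Of 31 chaperones and folding factors 7 (22.6%) were higher and 1 (3.2%) was lower in rRPE without overlap, with a median log2 fold change of 0.31, against 0.00 over all genes, and between 0.17 (rRPE replicate 2 left out) and 0.39 (rRPE replicate 3 left out). Over all genes 6.84% were higher and 5.68% lower without overlap. For 23 glycolysis genes the median was 0.14, and between 0.09 (t-rRPE replicate 3 left out) and 0.25 (t-rRPE replicate 2 left out). For 24 genes of cholesterol synthesis it was 0.15, and between 0.13 (t-rRPE replicate 2 left out) and 0.26 (t-rRPE replicate 3 left out). No member of the 3 lists was a DEG.

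Growth factors and angiogenic factors held 7 of 40 (17.5%) higher and 3 (7.5%) lower without overlap, against 6.84% and 5.68% of all genes. The median was 0.40, and between 0.20 (t-rRPE replicate 1 left out) and 0.57 (t-rRPE replicate 3 left out). Axon guidance genes, 47 in number, had a median of -0.02, which changed sign and was between -0.14 (rRPE replicate 2 left out) and 0.15 (t-rRPE replicate 3 left out), with 2 higher and 5 lower without overlap (4.3% and 10.6%).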
